A study of Mus musculus with 22 samples.

Results

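Semaphorins, plexins and neuropilins are the ligands, receptors and co-receptors of a large family of guidance signals. The 31 genes of these families were taken by symbol from the 24060 gene rows of the count tables: 20 semaphorins of classes 3 to 7, 9 plexins and 2 neuropilins. RNA came from the spinal cord of 11 young adult female mice, all of which carried a Cre driven by the mouse Gfap promoter and the RiboTag allele, which places a hemagglutinin (HA) tag on ribosomes of cells with Cre activity. The groups were uninjured wild-type mice (mGFAP-Cre-RiboTag, n = 4), the same genotype with a severe crush of the cord at T10, taken 14 days later (WT SCI, n = 4), and equally injured mice that also carried STAT3-LoxP alleles, so that the same Cre deletes Stat3 (STAT3-CKO SCI, n = 3). Tissue of the injured animals was the central 3 mm of the lesion, and each animal gave an HA immunoprecipitate (HA IP, RNA on tagged ribosomes) and a flow-through library of unprecipitated RNA. Which cells are tagged rests on the Gfap promoter, and no uninjured mice with the STAT3 deletion were analysed here. Nothing in the labels says more of the animals than their numbers, so the spread is that between these animals.

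Semaphorins act on neighbouring cells. Class 3 semaphorins are secreted and mostly signal through a neuropilin that binds the ligand and a class A plexin that signals, whereas classes 4 to 6 span the membrane and class 7 is held by a lipid anchor, and these bind plexins directly. Plexins act on small GTPases and on the actin and microtubule cytoskeleton through effectors such as MICAL proteins and collapsin response mediator proteins. In the central nervous system the family is best known for the steering and repulsion of axons, and in injured cord for signals that restrict axon growth and oligodendrocyte precursor migration, but members also act in immune and vascular cells.

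Depth differed strongly between groups. HA IP libraries held 31292491 to 59337089 counts and flow-through libraries 3898755 to 11242654. The ribosomal RNA precursor Rn45s took 12.6% to 26.7% of the counts of uninjured HA IP libraries, 89.0% to 96.2% of those of WT SCI, and 52.2% to 89.2% of those of STAT3-CKO SCI. Without the 3 ribosomal rows, a library held 26934866 to 51571785 counts in uninjured HA IP but 620265 to 2691494 in WT SCI, and 91626 to 615302 in WT SCI flow-through. The 31 genes together had 119 to 83804 counts in a library, so a level of 0 in a WT SCI flow-through library says little: 3 counts there correspond to 1.02 to 5.91 CPM (counts scaled to a common library size). Library sizes were set by the trimmed mean of M values within a fraction, so the levels of HA IP and flow-through are not on 1 scale. Injury and the ribosomal share cannot be told apart. The labels held where they could be checked: Gfap was 5.12 ± 0.22 (log2, SE) higher in HA IP than in flow-through of uninjured cord. Stat3 in HA IP was 26.3 to 66.1 CPM in WT SCI and 7.85 to 12.3 CPM in the STAT3-CKO libraries (log2 difference -2.17 ± 0.34, edgeR quasi-likelihood test, adjusted p = 0.0033). In uninjured WT HA IP, Stat3 was 12.2 to 15.5 CPM, a range that the STAT3-CKO libraries overlapped.

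In uninjured cord, the members most abundant per exon length in HA IP were Sema6d and Plxnb1. Sema6d, a transmembrane ligand of class A plexins, stood at 7.01 ± 0.64 CPM per kb of exon (SD, n = 4), and Plxnb1, the main neural receptor of Sema4d, at 4.67 ± 0.41. Sema6a followed at 1.74 ± 0.08, Plxnb2 at 1.39 ± 0.10, Sema7a at 1.27 ± 0.10, Sema4b at 1.16 ± 0.06 and Sema4a at 1.14 ± 0.13, the last 3 within each other's spread. Sema4d stood at 0.96 ± 0.12, Nrp1 at 0.37 ± 0.07 and Nrp2 at 0.35 ± 0.17 CPM per kb. The secreted class 3 ligands were at 0.605 ± 0.12 (Sema3b) or below, Sema3f at 0.040 ± 0.015. Sema3g had 0 to 5 counts in every library and entered no test. After injury the order of the highest members changed: Sema4d (5.70 ± 2.58), Plxnb1 (5.20 ± 2.37) and Plxnb2 (4.94 ± 1.76) led in WT SCI, with spreads that overlapped.

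**Figure D1:**
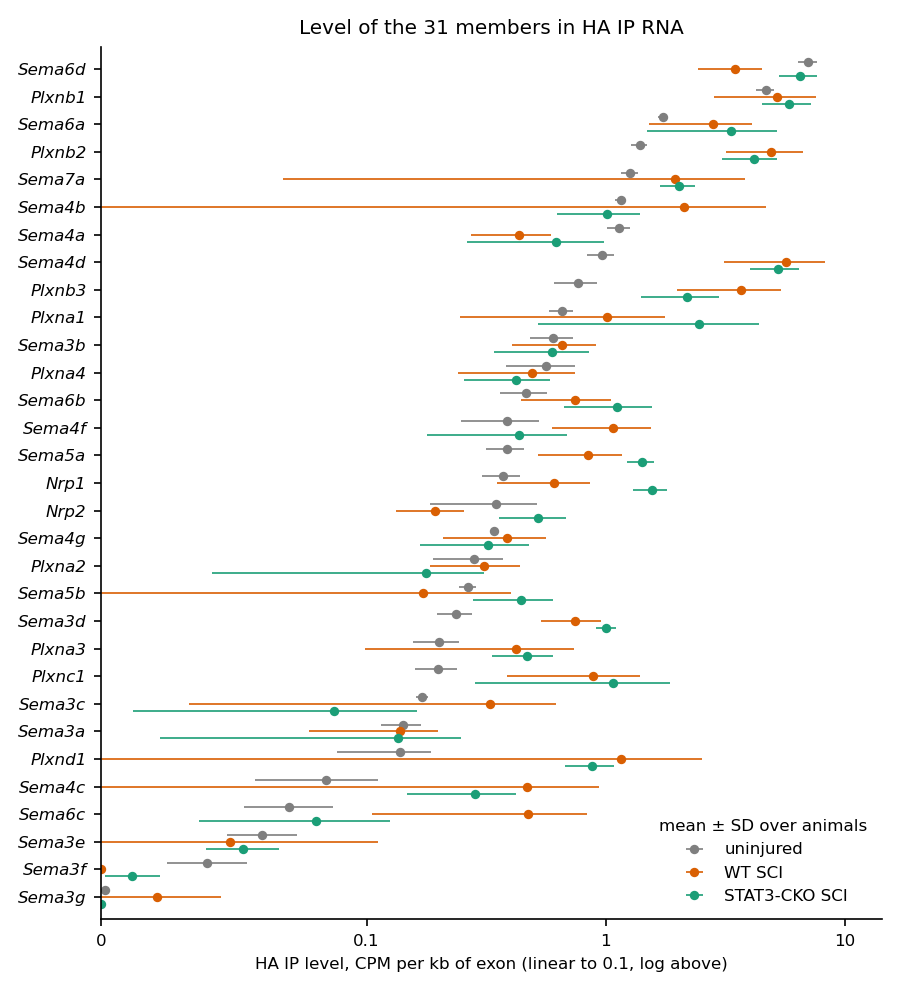
Level of each of the 31 members in HA IP in CPM per kb of exon, as the mean and SD over animals for uninjured WT (grey, n = 4), WT SCI (orange, n = 4) and STAT3-CKO SCI (green, n = 3); the axis is linear to 0.1 and logarithmic above, and bars that pass 0 end there. Sema6d and Plxnb1 are highest in uninjured cord, at 7.01 and 4.67, and Sema4d and Plxnb2 move up to their level after injury.

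The members divided between the HA IP and the flow-through of uninjured cord. Of 30 members tested, 8 were higher and 18 lower in HA IP, against 26.4% and 24.2% of the 14312 genes tested (edgeR quasi-likelihood test, adjusted p under 0.05). The share called higher was thus near that of all genes. Fewer members were called when all 22 libraries shared 1 fit, 5 higher and 6 lower. In the main fit, those called higher in HA IP were 3 plexins and 5 semaphorins. Plxnb1 was higher by 3.29 ± 0.27 (log2, SE, adjusted p = 3.4e-06), Sema3b, a secreted ligand of the neuropilins, by 2.63 ± 0.41, and Sema4b, a transmembrane ligand, by 2.40 ± 0.16. Sema6d was higher by 1.71 ± 0.13 and Plxnb2 by 1.38 ± 0.19. Smaller differences were those of Sema3d (0.89 ± 0.28) and Sema4a (0.86 ± 0.24), and Plxnd1, the receptor of Sema3e, was higher by 1.79 ± 0.68 with an adjusted p of only 0.048.

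Most class 3, 5, 6 and A-type members lay on the other side. Sema7a, the lipid-anchored member, was lower in HA IP by -1.74 ± 0.15 (log2, SE), Sema4f by -1.75 ± 0.28, Sema3f by -1.85 ± 0.48, Sema6c by -1.61 ± 0.33 and Sema6b by -1.54 ± 0.25. Sema3a, which collapses growth cones through Nrp1 and class A plexins, was lower by -1.44 ± 0.21 and Sema3e by -1.44 ± 0.31. Among the receptors, Plxna2 was lower by -1.58 ± 0.27, Plxna4 by -1.26 ± 0.28, Plxnc1 by -1.02 ± 0.21 and Plxna1 by -0.80 ± 0.17, while Plxnb3 had the adjusted p nearest the threshold (-0.52 ± 0.20, adjusted p = 0.0495). The other 6 called lower were Sema5b, Sema5a, Sema3c, Sema4d, Sema4g and Sema6a, from -1.29 to -0.36. Leaving out 1 library took the calls of Plxnb3 (without any of 5 libraries, adjusted p up to 0.148), Plxnd1 (any of 4, up to 0.128), Sema3d (HA IP of animal 79 or 65, up to 0.063), Sema4g (any of 3, up to 0.072) and Sema6a (any of 6, up to 0.078). Nrp1 (0.42 ± 0.28), Nrp2 (-0.82 ± 0.47), Plxna3 (-0.63 ± 0.33) and Sema4c (-0.35 ± 0.51) were not called. With the animal as a block, Nrp2 was also called lower.

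The same comparison separated cell type markers. All 8 astrocyte markers were higher in HA IP, by a median of 4.41 on the log2 scale, all 8 neuron markers were lower (median -2.20) and 7 of 8 oligodendrocyte markers were lower (median -0.64), while all 6 markers of oligodendrocyte precursors were higher (median 1.51). All 4 ependymal markers were also higher (median 2.60), and 7 of 9 microglia and macrophage markers were lower (median -1.35). Of 5 fibroblast and pericyte markers, 2 were higher and 2 lower, and 1 of 4 Schwann cell markers was higher. No endothelial marker was tested. Plxnb1 lay between the ependymal and astrocyte medians, as did Sema3b by a small margin. Most members called lower, among them Sema7a, Sema4f and Plxna2, lay between the oligodendrocyte and neuron medians. The microglia and macrophage median lay there too. How far each cell type gave these values was not tested. In tissue RNA, fewer cells of a type and less RNA per cell cannot be told apart.

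**Figure D2:**
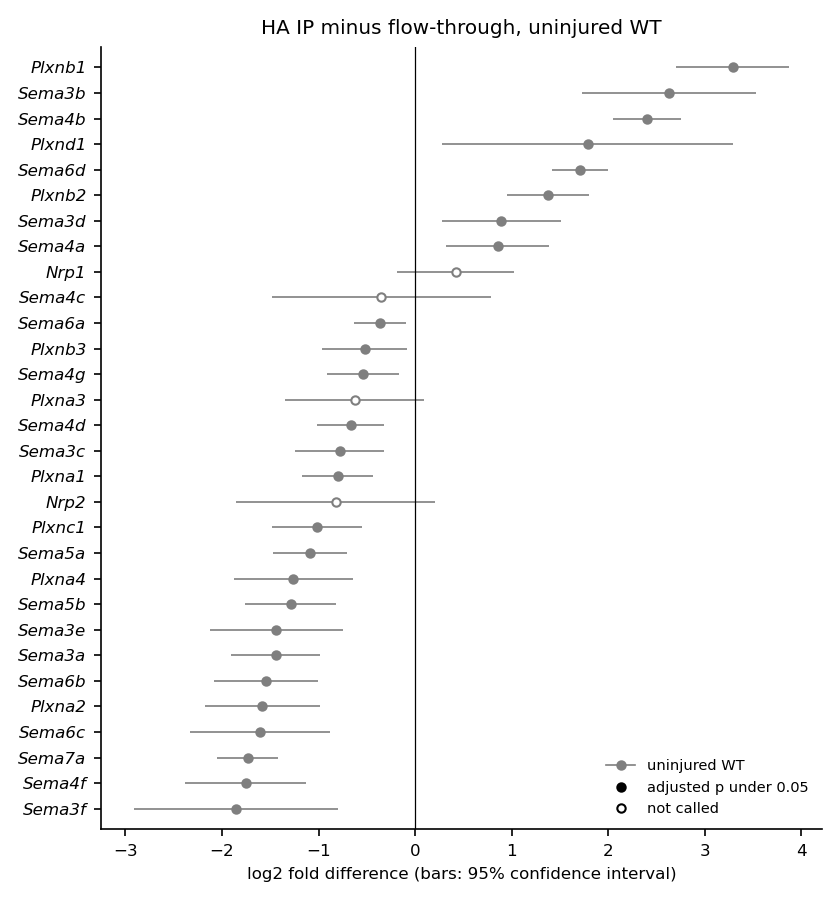
Log2 difference between HA IP and flow-through in uninjured WT cord (n = 4 animals) for 30 members, with 95% confidence intervals; filled points passed an adjusted p of 0.05. Plxnb1 is at the top at 3.29 and Sema3f at the bottom at -1.85, with 8 members called higher and 18 lower.

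In HA IP, more members rose with injury than fell. Of 30 tested, 10 rose and 3 fell in WT SCI, against 15.8% and 10.9% of the 14764 genes tested, and 13 had an unadjusted p under 0.05, against 39.7%. The median over the members was 0.68 on the log2 scale, also with Sema3f at its bound, and that over all genes 0.00. Plexins rose in 4 of 9 cases, semaphorins rose in 6 and fell in 3 of 19, and neither neuropilin was called. In the flow-through, 5 of 29 members rose and 7 fell, against 16.7% and 14.3% of 12685 genes, with 13 at an unadjusted p under 0.05, against 41.6%, and a median of 0.01 (all genes -0.09). The flow-through falls were 6 of 18 semaphorins and 1 plexin. The share that fell in HA IP and the share that rose in flow-through were near those of all genes. So was the share at an unadjusted p under 0.05 in either fraction.

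Of the secreted class 3 ligands, Sema3d rose in HA IP. It was 1.63, 2.35, 2.27 and 1.88 CPM in the uninjured and 5.87, 7.81, 7.85 and 4.11 CPM in the WT SCI libraries, so the groups did not overlap (log2 change 1.65 ± 0.39, adjusted p = 0.0046). In flow-through its change was 0.82 ± 0.74 and not called, with 0 to 9 counts in the WT SCI libraries. Sema3f, a ligand of Nrp2, had 212 counts over the uninjured HA IP libraries and 0 in all 4 of WT SCI, which makes it at least 2.32-fold lower, with a floor of 3 counts over the group. In flow-through it had 122 counts against 0, at least 1.61-fold lower. The adjusted p were 0.043 and 0.041, and the calls held in 2 of 12 and 3 of 12 other settings, with adjusted p up to 0.099 and 0.123 when 1 library was left out.

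Sema3a was called in flow-through alone. The difference between the fractions was 2.28 ± 0.99 with an adjusted p of 0.213, and with the animal as a block, which pairs the fractions, it was 2.14 ± 0.65 and called (adjusted p = 0.037). Its HA IP level was 1.64 to 2.45 CPM in uninjured and 1.10 to 3.05 CPM in WT SCI libraries (log2 change -0.04 ± 0.61). Its flow-through level was 7.90, 6.197, 5.38 and 6.196 CPM uninjured and 1.97, 2.32, 0 and 1.70 CPM in WT SCI, which stand on 0 to 5 counts (log2 change -2.13 ± 0.75, adjusted p = 0.031). The call was lost without any of 5 libraries (uninjured 42, 79 or 154, injured 9843 or 9596), with adjusted p up to 0.085. Neuron markers fell in flow-through as well, 7 of 8. They summed to 2727 to 3408 CPM uninjured and 338 to 780 CPM in WT SCI. In HA IP, where Sema3a was not called, 5 of 8 neuron markers also fell. Their sums there were 385 to 695 CPM uninjured and 85.6 to 208 CPM in WT SCI. The part of neurons in the result was not tested. Sema3b, Sema3c and Sema3e were not called in HA IP (0.12 ± 0.49, 0.91 ± 0.70 and -0.16 ± 0.86).

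Class 4 held the ligand with the smallest adjusted p, Sema4d, known from oligodendrocytes and lymphocytes and as a ligand of B-type plexins and CD72. Its HA IP level was 8.01, 8.31, 6.25 and 6.99 CPM uninjured and 16.6, 52.0, 62.9 and 43.5 CPM in WT SCI. Every injured library lay above every uninjured one, animal 9935 the least so (log2 change 2.57 ± 0.34, adjusted p = 2.3e-05). Flow-through Sema4d rose from 15.8, 12.8, 15.5 and 12.4 CPM to 39.4, 98.3, 43.5 and 78.0 CPM (2.23 ± 0.32, adjusted p = 4.5e-06). Sema4a, which acts on immune cells and vessels, fell in HA IP from 5.39, 6.83, 6.68 and 5.77 CPM to 1.96, 3.62, 1.92 and 1.85 CPM (-1.38 ± 0.49, adjusted p = 0.042), a call that 7 of 14 other settings kept and that was lost without any library but that of animal 9874, with adjusted p up to 0.102.

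The other class 4 calls were less firm. Sema4c, a ligand of Plxnb2, had 1.96, 1.24, 0.174 and 5.21 CPM in WT SCI HA IP against 0.241 to 0.500 uninjured, so the groups overlapped (2.51 ± 0.77, adjusted p = 0.022). Without animal 9596, which gave 76 of its counts, the adjusted p was 0.165, without any 1 of the uninjured libraries it was 0.051 to 0.080, and 7.27% of its exon bases are shared with a gene on the other strand. Sema4f was 2.81 to 8.82 CPM after injury and 1.36 to 2.94 CPM before (1.46 ± 0.52, adjusted p = 0.045, kept in 4 of 14 other settings, with adjusted p up to 0.139 without uninjured animal 79). Sema4b and Sema4g were not called in either fraction. Sema4b spanned 0.823 to 32.3 CPM across the WT SCI HA IP libraries, and its flow-through value (2.24 ± 0.88, adjusted p = 0.054) stands on 18 counts of animal 9935 beside 0 to 3 in the others.

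Class 5 and class 6 members moved in both directions. Sema5a, whose thrombospondin repeats set this class apart and which binds Plxnb3, rose in HA IP from 8.68, 7.02, 5.51 and 7.58 CPM to 11.7, 9.50, 20.9 and 21.1 CPM, with no overlap (1.14 ± 0.32, adjusted p = 0.013, or 0.052 without uninjured animal 65). In flow-through its value was -0.07 ± 0.36. Sema5b fell in flow-through, with 3 counts over the WT SCI libraries against 770 uninjured, a ratio of 0.098 with a counting interval of 0.020 to 0.288 (log2 change -3.46 ± 1.01, adjusted p = 0.011, and -4.71 without animal 9843). In HA IP its value was -0.55 ± 0.76.

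Sema6d, the most abundant member, fell. Its HA IP level was 81.6, 76.3, 72.8 and 65.4 CPM uninjured and 34.5, 50.9, 24.2 and 36.8 CPM in WT SCI (-1.01 ± 0.25, adjusted p = 0.0066), a call kept in all 14 other settings. Flow-through Sema6d fell alongside, from 24.3, 28.6, 26.7 and 29.4 CPM to 7.88, 15.5, 14.0 and 16.7 CPM (-0.94 ± 0.31, adjusted p = 0.024, or 0.060 and 0.070 without uninjured animal 79 or 154). The flow-through value of 7.88 CPM stands on 4 counts. Astrocyte markers in HA IP moved too: 4 of 8 fell and 1, Gfap, rose, with a summed level of 3902 to 4845 CPM uninjured and 3082 to 5441 CPM injured. Sema6c rose in HA IP from 0.361, 0.376, 0.373 and 0.569 CPM to 1.30, 0.566, 4.53 and 4.80 CPM (2.76 ± 0.74, adjusted p = 0.0095), where animal 9874 overlapped the uninjured range.

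Sema6a and Sema7a fell in flow-through. Sema6a, a ligand of Plxna2 and Plxna4, went from 24.8, 20.7, 24.7 and 23.7 CPM to 5.91, 10.1, 11.8 and 17.0 CPM (-0.96 ± 0.36, adjusted p = 0.043), and Sema7a, a ligand of Plxnc1 and of β1 integrins, from 14.0, 17.2, 18.1 and 17.7 CPM to 1.97, 12.4, 6.64 and 5.45 CPM (-1.26 ± 0.40, adjusted p = 0.019). Neither gene's groups overlapped, but the lowest injured values, 5.91 CPM of Sema6a and 1.97 CPM of Sema7a, stand on 3 counts and 1 count. Their HA IP values were 0.71 ± 0.37 and 0.65 ± 0.55, and Sema6b, at 0.67 ± 0.51 in HA IP and -1.13 ± 0.59 in flow-through, was called in neither. The Sema6a call held in 6 of 14 other settings and was lost without any of 7 libraries, with adjusted p between 0.061 and 0.092, while the Sema7a call was lost without uninjured animal 65 or 154 or injured animal 9596, at 0.052 to 0.057.

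Of the 9 plexins, 4 rose in HA IP, and each of these calls held in all 14 other settings. Plxnb2 (NM_138749, chromosome 15, 89155549 to 89180788 on the minus strand of GRCm38, 36 merged exons in GENCODE M21), a receptor of class 4 semaphorins, rose in HA IP from 9.96, 11.1, 11.6 and 10.1 CPM to 33.6, 58.3, 28.8 and 31.9 CPM (1.84 ± 0.29, adjusted p = 0.00012). Its flow-through rise was larger, from 4.56, 3.34, 6.22 and 5.63 CPM to 53.2, 92.1, 82.6 and 49.1 CPM (3.81 ± 0.32, adjusted p = 7.0e-10). Every injured library of either fraction lay above every uninjured library.

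Plxnc1 (NM_018797, chromosome 10, 94790866 to 94944835, minus strand, 34 merged exons), the receptor of Sema7a, rose in HA IP from 1.72, 1.51, 1.33 and 2.11 CPM to 6.19, 6.45, 13.4 and 3.63 CPM (2.15 ± 0.51, adjusted p = 0.0044). In flow-through it rose from 3.72, 4.42, 3.64 and 4.47 CPM to 29.6, 13.9, 32.5 and 16.4 CPM (2.46 ± 0.38, adjusted p = 1.3e-05). Again no injured library overlapped the uninjured ones.

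Plxnd1 (NM_026376, chromosome 6, 115954811 to 115995005, minus strand, 36 merged exons), which binds Sema3e without a neuropilin, was scarce before injury. HA IP levels were 0.503, 1.03, 1.15 and 1.33 CPM uninjured and 0.978, 23.1, 4.36 and 5.42 CPM in WT SCI, where animal 9935 stands on 3 counts inside the uninjured range (3.11 ± 0.66, adjusted p = 0.0018). Without animal 9874, at 23.1 CPM, the change was 1.92, still called. Flow-through Plxnd1 rose from 0.0318, 0.650, 0.673 and 0.221 CPM to 1.97, 4.65, 9.59 and 9.20 CPM (4.28 ± 0.70, adjusted p = 3.4e-05), on 1 to 27 counts in the injured libraries.

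Plxnb3, the receptor of Sema5a and known from oligodendrocytes, rose in HA IP and not in flow-through. The HA IP levels were 4.85, 6.25, 5.03 and 3.74 CPM uninjured and 15.6, 27.8, 37.8 and 14.5 CPM injured (2.27 ± 0.37, adjusted p = 0.00018), and the flow-through change was 0.01 ± 0.49. Plxnb1 kept a level of 40.5 to 49.96 CPM uninjured and 30.9 to 82.1 CPM injured in HA IP (0.15 ± 0.29, 95% confidence interval -0.46 to 0.75). Class A plexins, the signalling partners of neuropilins, were not called in HA IP (Plxna1 0.65 ± 0.48, Plxna2 0.13 ± 0.52, Plxna3 1.10 ± 0.58, Plxna4 -0.16 ± 0.43). Plxna4 fell in flow-through from 33.8, 17.5, 18.5 and 21.5 CPM to 3.94, 13.2, 13.3 and 11.2 CPM (-1.04 ± 0.36, adjusted p = 0.028, or up to 0.094 without uninjured animal 42 or 154 or injured animal 9935). The value of 3.94 CPM stands on 2 counts.

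Nrp1, the co-receptor of Sema3a and of VEGF-A, rose in flow-through from 4.90, 2.30, 2.19 and 3.37 CPM to 5.91, 27.9, 20.7 and 5.11 CPM (2.23 ± 0.47, adjusted p = 0.00062), where 2 injured libraries lay just above the uninjured range. The value of 5.91 CPM stands on 3 counts. In HA IP, the WT change of Nrp1 was 0.69 ± 0.39. For Nrp2, the co-receptor of Sema3f, the values were -0.86 ± 0.48 in HA IP and -0.44 ± 0.54 in flow-through, neither called.

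Plxnb2, Plxnc1, Plxnd1 and Sema4d were called higher after injury in both fractions of WT animals, 4 of the 29 members tested in both; Sema3f and Sema6d were called lower in both, and 0 were called in opposite directions. Both fractions of an animal come from the same tissue. Of all genes tested, 15.8% rose in HA IP and 16.7% in flow-through, and the share called in both was not counted. For Plxnb2, Plxnc1, Plxnd1 and Sema4d, called higher in both fractions, the 250 bases before the RefSeq start are shown. The build is GRCm38.p6, with the start farthest upstream where several are given. Capitals mark GC boxes, GGGCGG on either strand, a common element of promoters that lack a TATA box.
Plxnb2: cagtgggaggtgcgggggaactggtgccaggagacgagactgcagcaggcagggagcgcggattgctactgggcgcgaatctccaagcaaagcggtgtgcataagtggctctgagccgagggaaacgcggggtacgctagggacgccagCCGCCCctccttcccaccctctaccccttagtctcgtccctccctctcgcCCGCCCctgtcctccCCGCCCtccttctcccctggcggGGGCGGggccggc
Plxnc1: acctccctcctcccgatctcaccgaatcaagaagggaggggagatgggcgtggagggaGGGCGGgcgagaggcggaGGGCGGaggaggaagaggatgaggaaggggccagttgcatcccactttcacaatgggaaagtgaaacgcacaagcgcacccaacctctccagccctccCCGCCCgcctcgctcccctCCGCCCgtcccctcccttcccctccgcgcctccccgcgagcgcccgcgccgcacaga
Plxnd1: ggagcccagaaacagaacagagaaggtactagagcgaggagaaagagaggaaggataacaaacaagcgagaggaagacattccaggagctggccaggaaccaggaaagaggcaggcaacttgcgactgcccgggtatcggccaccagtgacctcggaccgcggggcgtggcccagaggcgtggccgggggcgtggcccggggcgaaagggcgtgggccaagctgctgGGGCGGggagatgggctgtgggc
Sema4d: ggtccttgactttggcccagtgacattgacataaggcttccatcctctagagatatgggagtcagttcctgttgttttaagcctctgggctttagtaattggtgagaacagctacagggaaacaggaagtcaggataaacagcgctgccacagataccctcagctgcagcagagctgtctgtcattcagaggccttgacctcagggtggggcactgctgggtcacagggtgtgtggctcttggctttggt
These windows are chr15:89180789-89181038, chr10:94944846-94945095, chr6:115995006-115995255 and chr13:51756684-51756933, all on the minus strand. The Sema4d window lies inside the gene as GENCODE M21 has it (51685529 to 51793747), so its start may be an internal one, whereas the other 3 lie at the end of their genes where transcription begins. They hold 4, 4, 1 and 0 GC boxes at a GC content of 69.2%, 68.8%, 64.8% and 52.0%, in that order. A GC box stood in 27 of the 37 RefSeq windows of the 26 members matched by symbol (73.0%) and in 32.7% of all 32851 windows of this length. No window was found for Plxna1, Plxna4, Sema3b, Sema3f and Sema6a. Because the STAT3-CKO animals lose the transcription factor STAT3 in cells with Cre, the windows, with 50 bases after the start added, were also searched for its motif TTCNNNGAA, which reads the same on both strands. It stood in 1 of 37 member windows (2.7%) and in 8.3% of all. The median GC content of these longer windows was 63.7% in members and 52.7% in all. Its part in the shares of the GC box and of the motif was not tested. The 1 match is in Sema3e, 41 bases after the start, at chr5:14025317-14025325, plus strand. The stretch shown, chr5:14025297-14025325, ends with the motif, which is in capitals.
Sema3e: ggcacgtgggctggagacacTTCCTAGAA
The Sema3e difference between the genotypes in HA IP was -0.02 ± 0.93, not called, on 0 to 19 counts in the WT SCI libraries.

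Markers of other cell types rose with these members. The summed level of the 10 microglia and macrophage markers was 11.7 to 29.7 CPM in uninjured and 551 to 2052 CPM in WT SCI HA IP libraries, and 42.0 to 88.5 against 2549 to 7860 CPM in flow-through, with 9 of 10 called higher in each. The 8 oligodendrocyte markers went from 1347 to 1784 CPM to 5752 to 8465 CPM in HA IP, with 7 called higher, and from 3127 to 3691 CPM to 4618 to 5108 CPM in flow-through, with 2 called higher. Fibroblast and pericyte markers rose in flow-through, 5 of 5 tested, while endothelial markers summed to at most 4.43 CPM in WT SCI, with 5 of 6 at 0 in all flow-through and 3 of 6 in all HA IP libraries. In HA IP, 3 of 5 fibroblast and pericyte markers were also called higher, with a sum of 8.52 to 12.7 CPM uninjured and 10.75 to 61.55 CPM in WT SCI, and 5 of 6 oligodendrocyte precursor markers were higher and 1 lower, with a sum of 239 to 338 CPM uninjured and 473 to 650.4 CPM in WT SCI. No microglia or oligodendrocyte marker was at 0 in all libraries of a group. The part of these cells in the rise of Plxnb2, Plxnc1, Plxnd1, Plxnb3 and Sema4d was not tested.

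**Figure D3:**
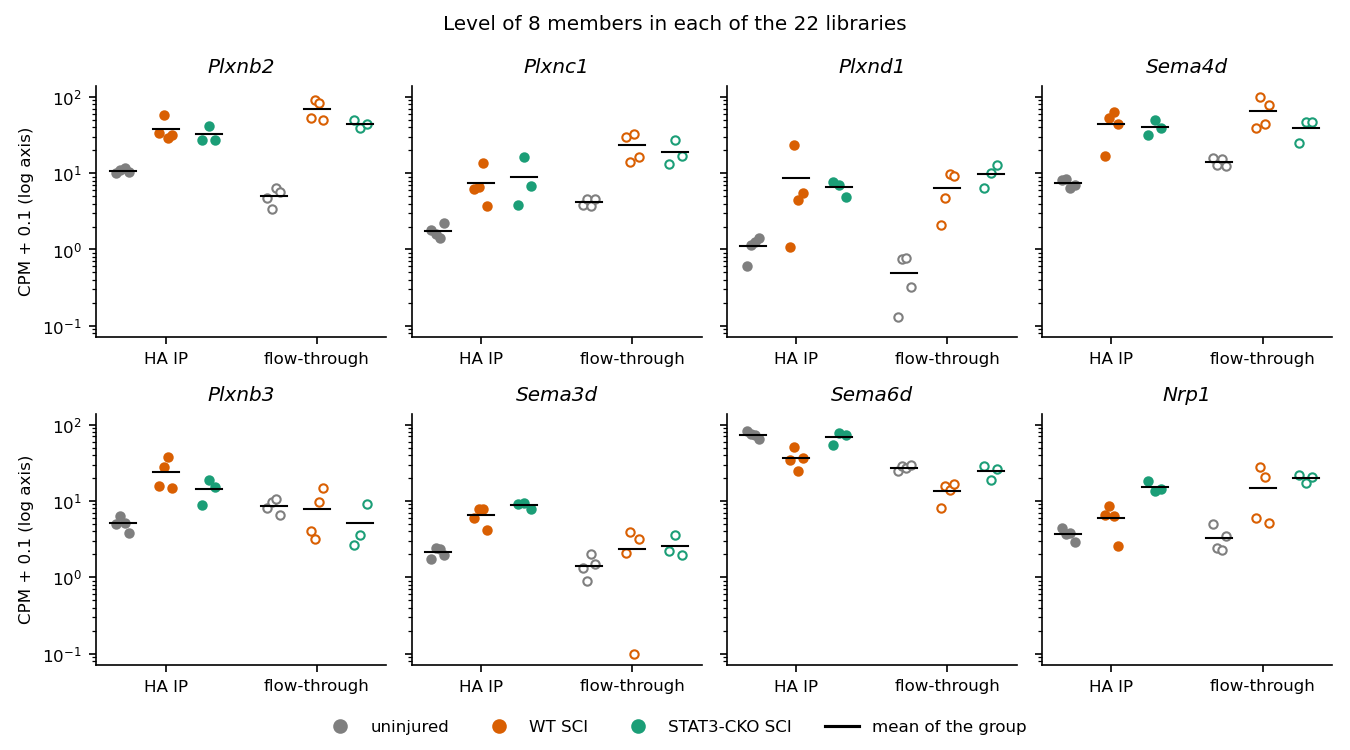
CPM in each library, plus 0.1 and on a log axis, for 8 members, with filled points for HA IP and open points for flow-through; grey is uninjured WT, orange WT SCI and green STAT3-CKO SCI, and black lines are group means. Plxnb2, Plxnc1 and Sema4d have all injured libraries above all uninjured libraries of their fraction, Plxnb3 and Sema3d are so in HA IP, and Sema6d is lower in WT SCI.

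**Figure D4:**
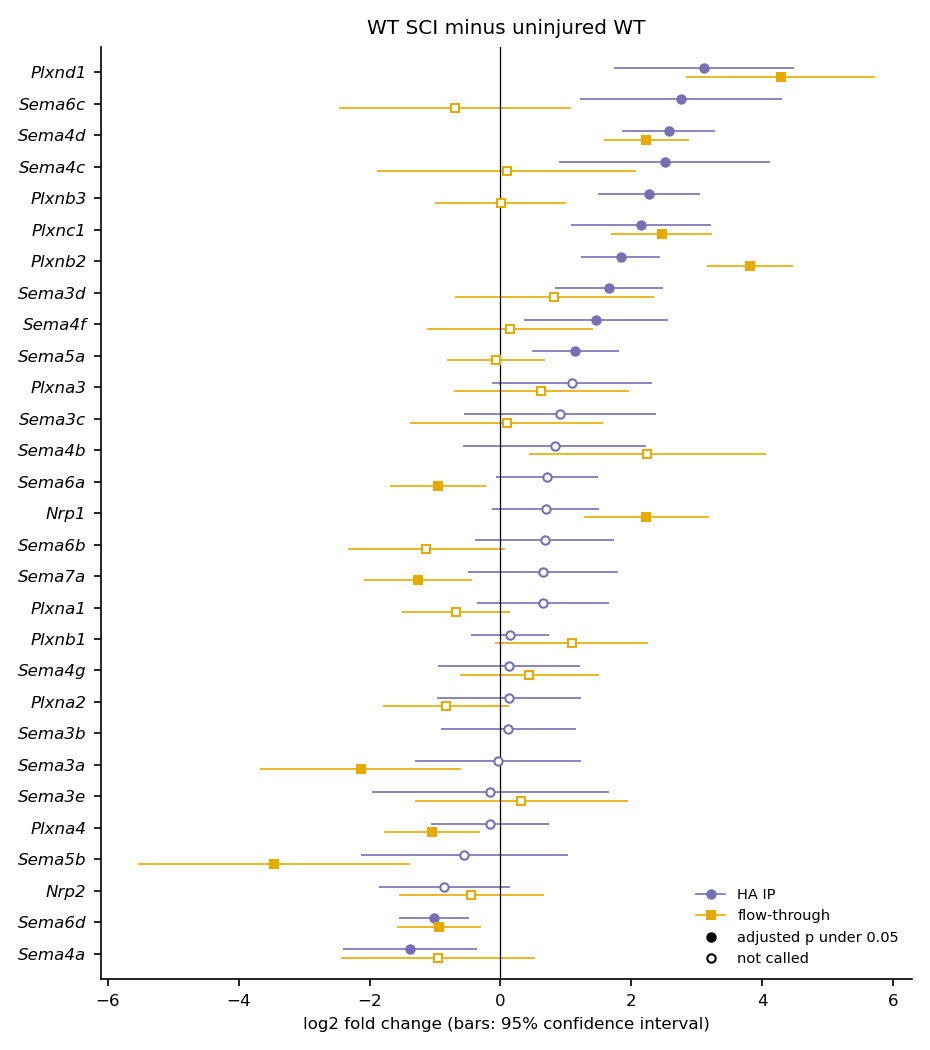
Log2 change with injury in WT animals in HA IP (circles) and flow-through (squares) with 95% confidence intervals, ordered by the HA IP value; filled points passed an adjusted p of 0.05, and Sema3f, at 0 counts in both injured groups, is left out. Plxnb2 is at 1.84 in HA IP and 3.81 in flow-through, Plxnb3 at 2.27 and 0.01.

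The difference between the fractions in their response to injury was tested directly over all 22 libraries. Of 30 members, 2 were called higher and 1 lower, against 2.67% and 2.03% of 15142 genes. Plxnb3 responded more in HA IP (difference of log2 changes 2.44 ± 0.61, adjusted p = 0.014) and Plxnb2 more in flow-through (-1.79 ± 0.40, adjusted p = 0.0068), and both calls held in all 21 other settings. Sema6a responded more in HA IP (1.86 ± 0.53, adjusted p = 0.037), a call kept in 8 of 21 and lost without any of 11 libraries, with adjusted p up to 0.078. With the animal as a block, 10 were called: these 3 with Nrp1 (-1.34) toward flow-through, and Plxna4 (1.11), Sema3a (2.14), Sema5a (1.49), Sema6b (1.96), Sema6c (3.77) and Sema7a (2.00) toward HA IP. The shares of all genes above are those without the block, and the share with it is not given here. Of the oligodendrocyte markers, 7 of 8 were also called higher in this contrast, with a median of 1.56. The median over all genes was 0.26. Of the astrocyte markers, 5 of 8 were called lower in it and 0 higher, with a median of -1.89. In flow-through alone, 5 of the 8 astrocyte markers rose with injury in WT, with a median of 1.56. The part of either cell type in the Plxnb3 and Plxnb2 results was not tested.

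Within the lesion, fewer members and a smaller share of all genes separated HA IP from flow-through, at the lower depth given above. The part of depth was not tested. In WT SCI, 2 of 22 tested were higher and 0 lower, against 4.09% and 2.16% of 8466 genes: Plxnb1 (2.31 ± 0.59, adjusted p = 0.023) and Sema6d (1.59 ± 0.41, adjusted p = 0.023). The Plxnb1 call was lost when the HA IP of animal 9935 or the flow-through of 9874 or 9843 was left out (adjusted p up to 0.088) and Sema6d without either library of 9874 or the flow-through library of 9843 (up to 0.071), and the Plxnb1 difference was 3.69 without the flow-through library of animal 9596, which gave 84 of its flow-through counts beside 0 to 11 in the others. With the animal as a block, Plxnb3 (1.78 ± 0.53, adjusted p = 0.039) and Plxnc1 (-1.50 ± 0.43, adjusted p = 0.034) were added.

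In STAT3-CKO SCI, 4 of 29 were higher and 1 lower, against 7.12% and 4.70% of 12659 genes. Plxnb1 was higher in HA IP by 4.06 ± 0.35 (log2, SE), Sema6d by 1.75 ± 0.31, Sema3d by 2.13 ± 0.48 and Plxnb3 by 1.65 ± 0.47, and Plxna4 was lower by -1.45 ± 0.38. The block added Sema5a (0.89), Sema6a (0.81), Plxna2 (-1.29) and Plxnc1 (-0.96), 9 in all. Without 1 library, Plxna4 (adjusted p up to 0.123), Plxnb3 (up to 0.123, and 2.55 without the flow-through library of animal 270) and Sema3d (0.053 without that library) lost their calls. Plxnb1 and Sema6d were the members called higher in HA IP in each of the 3 conditions, and the share of all genes called in all 3 was not counted. Of the astrocyte markers, all 8 were higher in uninjured and STAT3-CKO SCI and 6 of 8 in WT SCI. Of the oligodendrocyte precursor markers, all 6 were higher in uninjured and STAT3-CKO SCI and 5 of 6 in WT SCI. The part of these cell types was not tested.

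Loss of STAT3 was compared between the injured groups. No member was called: 0 of 30 in HA IP, against 0.596% higher and 0.562% lower of 14764 genes, and 0 of 29 in flow-through, against 0.0867% and 0.0315% of 12685 (edgeR quasi-likelihood test). An unadjusted p under 0.05 was found for 8 members in HA IP, against 16.4% of all genes, and for 7 in flow-through, against 13.1%. DESeq2 called 3 in HA IP, Nrp1 (1.31), Sema6d (0.84) and Sema6c (-2.60), and 0 in flow-through. The share of all genes that DESeq2 called is not given here, so these 3 have no background beside them.

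The intervals were wide. Nrp1 in HA IP was 6.52, 8.48, 6.28 and 2.47 CPM in WT SCI and 18.01, 13.4 and 14.3 CPM in STAT3-CKO SCI, without overlap (1.37 ± 0.42, 95% confidence interval 0.50 to 2.24, adjusted p = 0.11). Nrp2 was 1.96, 2.26, 3.31 and 1.65 CPM against 3.99, 6.86 and 7.64 CPM, also without overlap (1.44 ± 0.51, interval 0.38 to 2.50, adjusted p = 0.165). Sema6d was 24.2 to 50.9 CPM against 54.5, 77.4 and 73.2 CPM (0.90 ± 0.27, interval 0.33 to 1.46, adjusted p = 0.11, or 0.048 without WT SCI animal 9874), and Sema5a 9.50 to 21.1 CPM against 23.2, 26.0 and 30.1 CPM (0.73 ± 0.34, adjusted p = 0.29). Sema6c lay the other way, with 0.566 to 4.80 CPM against 0.214 to 0.735 CPM (-2.55 ± 0.83, interval -4.28 to -0.81, adjusted p = 0.135).

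For the members that rose in WT SCI, the genotype intervals in HA IP were -0.88 to 0.38 for Plxnb2, -0.85 to 0.60 for Sema4d, -0.82 to 1.38 for Plxnc1, -1.82 to 0.96 for Plxnd1, -1.56 to 0.07 for Plxnb3, -0.43 to 1.30 for Sema3d, 0.03 to 1.44 for Sema5a, -2.49 to 0.92 for Sema4c, -2.48 to -0.07 for Sema4f (-1.27 ± 0.58, adjusted p = 0.28) and, as given above, -4.28 to -0.81 for Sema6c. The intervals of Sema5a, Sema4f and Sema6c do not include 0, and none of the 10 was called. In flow-through, the values of Plxna1 (1.19 ± 0.43), Plxna4 (0.84 ± 0.38), Sema4c (1.52 ± 1.00) and Sema6d (0.80 ± 0.34) did not overlap between the genotypes, and STAT3-CKO SCI was the higher group in each, with adjusted p from 0.24 to 0.53. Among all genes, the STAT3-CKO SCI libraries were all higher for 7.21% and all lower for 2.06% in flow-through. In HA IP these shares were 6.12% and 3.07%, and Nrp1, Nrp2, Sema5a and Sema6d were the members without overlap, all higher. The Sema4c value stands on 0, 1, 1 and 2 counts in the WT SCI flow-through libraries. The genotype effect did not differ between the fractions by a call for any of 30 members, against 0.00660% and 0.0198% of 15142 genes, where 2 had an unadjusted p under 0.05, against 6.16%, and DESeq2 called 0. The Rn45s share and the depth differed between the genotypes as given above, and their part was not tested.

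**Figure D5:**
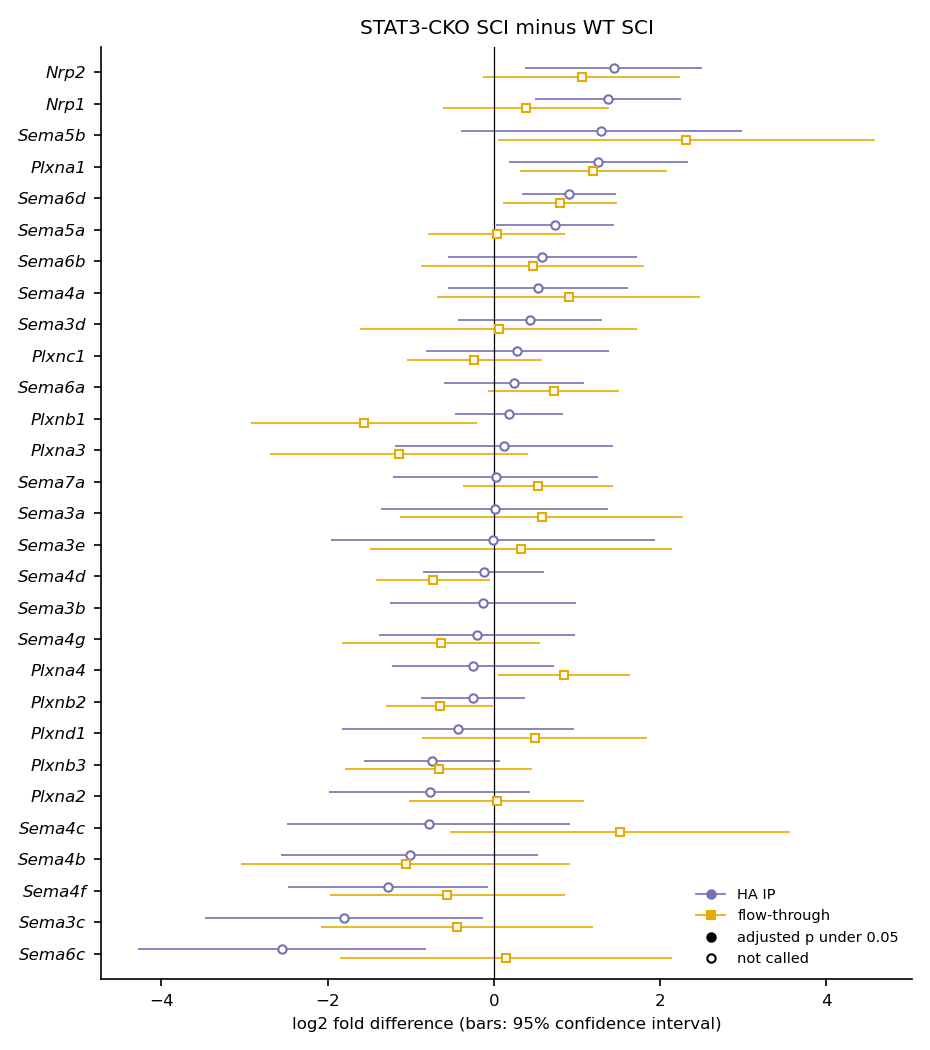
Log2 difference between STAT3-CKO SCI (n = 3) and WT SCI (n = 4) in HA IP (circles) and flow-through (squares) with 95% confidence intervals, ordered by the HA IP value; Sema3f, at 0 counts in both WT SCI groups, is left out. All points are open because no member passed an adjusted p of 0.05, and the HA IP interval of Nrp1 runs from 0.50 to 2.24.

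STAT3-CKO SCI was also set against uninjured WT. This contrast holds genotype and injury together and shares its controls with the WT comparison, so the values stand side by side. In HA IP, 9 of 30 rose and 0 fell, against 7.70% and 2.08% of 14764 genes: Plxnb2 by 1.58 ± 0.30 (1.84 in WT), Plxnc1 by 2.43 ± 0.53 (2.15), Plxnd1 by 2.68 ± 0.67 (3.11), Plxnb3 by 1.53 ± 0.38 (2.27), Sema4d by 2.45 ± 0.35 (2.57), Sema3d by 2.09 ± 0.41 (1.65) and Sema5a by 1.88 ± 0.34 (1.14). Added to these were Nrp1 at 2.07 ± 0.41 (0.69 in WT) and Plxna1 at 1.90 ± 0.51 (0.65). The Plxna1 rise rested on animal 186, at 42.3 CPM beside 14.6 and 9.87 CPM, and without that library its value was 1.04 with an adjusted p of 0.302, and without any 1 of the uninjured libraries 0.056 to 0.077. Leaving out animal 531 took the Plxnc1 call (adjusted p = 0.088) and the Plxnb3 call (0.096), leaving out uninjured animal 154 also the latter (0.065), and Plxnd1 was lost without uninjured animal 42 (0.060) or injured animal 186 (0.052). An antisense gene shares 10.7% of the Plxna1 exon bases. Sema6d, which fell in WT SCI, stood at -0.11 ± 0.27. Markers of other cells rose in HA IP here as well: 9 of 10 of microglia and macrophages (summed level 779 to 1053 CPM), 6 of 8 of oligodendrocytes (3473 to 4085 CPM), 5 of 6 of oligodendrocyte precursors (503.5 to 730.1 CPM) and 3 of 5 of fibroblasts and pericytes (16.5 to 33.3 CPM). Their part in the result was not tested.

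In flow-through, 5 of 29 rose and 0 fell, against 10.4% and 3.53% of 12685 genes. Nrp1 rose by 2.61 ± 0.46 (2.23 in WT), Plxnb2 by 3.16 ± 0.32 (3.81), Plxnc1 by 2.22 ± 0.38 (2.46), Plxnd1 by 4.77 ± 0.69 (4.28) and Sema4d by 1.49 ± 0.32 (2.23), the same 5 genes as in WT. All 5 were also called in HA IP of these animals. The shares of all genes called in both genotypes or in both fractions were not counted. Sema7a (-0.73 ± 0.39) and Sema3a (-1.56 ± 0.64), which fell in WT SCI, were not called here. Beside these rises, 9 of 10 microglia and macrophage markers (3282 to 4173 CPM), 5 of 5 fibroblast and pericyte markers (32.2 to 86.8 CPM) and 5 of 8 astrocyte markers were called higher and 4 of 8 neuron markers lower in flow-through, and their part was not tested.

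The partner genes were taken from 6 lists of 65 genes in all. In HA IP, 18 of 63 tested rose with injury in WT and 1 fell, against 15.8% and 10.9% of all genes tested, and in flow-through 21 of 58 rose and 8 fell, against 16.7% and 14.3%. The share that fell in flow-through was thus near that of all genes. The list of other semaphorin receptors also holds the adaptor Tyrobp and the Tim family receptor Havcr2. Its genes rose in 4 of 6 cases in HA IP and 5 of 5 in flow-through, with log2 medians of 3.80 and 4.76. Among them, Trem2, which forms a receptor of Sema6d with Plxna1 in myeloid cells, rose by 6.82 ± 0.58 and 7.12 ± 0.52, its adaptor Tyrobp by 3.68 ± 0.49 and 4.11 ± 0.39, and the Sema4d receptor Cd72 by 9.14 ± 0.90 in flow-through. Tyrobp is also on the microglia marker list above.

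Downstream genes were called in both directions in flow-through. Of all genes tested, 15.8% rose and 10.9% fell in HA IP, and 16.7% rose and 14.3% fell in flow-through. Of 20 kinases and effectors, 7 rose in HA IP and 0 fell, with Cfl1, which severs actin filaments, at 1.95 ± 0.27, and in flow-through 5 rose and 2 fell. Among those that rose there were Fes, a kinase that binds plexins, at 5.30 ± 0.84 and Mical1, an enzyme that oxidises actin downstream of plexins, at 3.71 ± 0.72, both named after their values were seen. Among those that fell was Crmp1, a collapsin response mediator, at -1.60 ± 0.43. Of the GTPases, GEFs and adaptors, 3 of 20 rose in HA IP, and 7 of 19 rose and 4 fell in flow-through. Ranbp9 was among those that fell, at -1.26 ± 0.33. The 3 of 20 was near the share of all genes, and the 2 of 20 kinases and effectors that fell in flow-through was below it. Vegfa, which competes with Sema3a for Nrp1, fell by -1.99 ± 0.46 in HA IP and -2.76 ± 0.82 in flow-through. Holoreceptor partners rose in 3 of 9 cases in HA IP and fell in 1 of 6 in flow-through, and proteases rose in 1 of 5 and 4 of 5. The 1 of 6 and the 1 of 5 were near the shares of all genes.

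Against uninjured WT, STAT3-CKO SCI showed 13 of 63 partners higher in HA IP and 13 of 58 in flow-through, with 0 lower in each, against 7.70% higher and 2.08% lower of all genes in HA IP and 10.4% and 3.53% in flow-through. Trem2 rose by 6.44 ± 0.58 and 6.59 ± 0.52, Tyrobp by 4.24 ± 0.51 and 4.39 ± 0.41, Havcr2, a Tim family receptor, by 3.84 ± 0.62 in HA IP and Cd72 by 9.29 ± 0.89 in flow-through. No partner was called between the genotypes in either fraction, with 9 and 6 at an unadjusted p under 0.05, against 16.4% and 13.1% of all genes. In uninjured cord, 22 of 61 partners were higher and 20 lower in HA IP than in flow-through, against 26.4% and 24.2% of all genes. Mical1 was higher in HA IP by 3.81 ± 0.36, Farp1 by 2.70 ± 0.14 and Rap1b by 1.83 ± 0.15. L1cam, a holoreceptor partner of Nrp1, was lower by -2.12 ± 0.17, Crmp1 by -1.78 ± 0.16 and Pak1 by -1.65 ± 0.16.

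Within the lesion, 4 of 50 partners were higher and 5 lower in HA IP of WT SCI, against 4.09% and 2.16% of all genes. Mras was higher by 2.03 ± 0.38, Fyn, a kinase downstream of Sema3a, by 1.66 ± 0.35 and Pgf, a ligand of the VEGF family, by 3.41 ± 0.93, while Trem2 (-1.82 ± 0.32), Tyrobp (-1.96 ± 0.45) and L1cam (-2.05 ± 0.55) were lower. In STAT3-CKO SCI, 7 of 61 were higher and 8 lower, against 7.12% and 4.70% of all genes, with Fyn at 2.28 ± 0.32, Mras at 1.65 ± 0.31 and Farp1 at 2.19 ± 0.44 above, and Trem2 (-1.58 ± 0.30), L1cam (-1.94 ± 0.42) and Havcr2 (-1.34 ± 0.32) below. The injury response differed between fractions for 6 of 64 partners, against 2.67% of all genes toward HA IP and 2.03% toward flow-through. Mical3 (2.23 ± 0.48), Dpysl3 (2.36 ± 0.52) and Dpysl5 (2.71 ± 0.62) were among the 4 toward HA IP, and Rap1b (-3.13 ± 0.40) and Mmp14 (-3.97 ± 0.96), a protease, were the 2 toward flow-through. The genotype effect differed between fractions for 0 of 64 (edgeR quasi-likelihood test), with 2 at an unadjusted p under 0.05, against 6.16% of all genes.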

How the data were processed

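Gene counts were taken as deposited: raw counts per gene for 24060 rows, per the file headers, in separate tables for HA IP and flow-through. CASAVA 1.8.2, edgeR and the build mm10 are named in the submitters' processing notes, while for the aligner, counter, annotation and strand setting nothing is given in the sources used here. Another 146 per-sample columns of the tables were not used. Low genes were removed with filterByExpr, libraries scaled by the trimmed mean of M values (TMM), and groups compared with edgeR's quasi-likelihood test (edgeR 4.0.16, R 4.3.3). HA IP and flow-through were fitted separately over all 3 groups for injury and genotype, HA IP against flow-through within each condition, and interactions over all 22 libraries. P-values were adjusted by Benjamini-Hochberg over all genes tested, with calls made below 0.05; SE is the log2 change over the root of F, and intervals are 95%. The fits were tested on simulated counts. Alternatives were DESeq2 1.42.0, median-ratio scaling, no filter, no ribosomal rows, the 2 groups alone, all 22 libraries in 1 fit, the animal as a block, leaving out each library, and thinning to equal depth, the last added after seeing the data. Both libraries of an animal share its number in the labels, and their deviations from the group means correlated at r = 0.25 to 0.65 for every animal, so the animal pairs them. Every member is named, members called with values, and per comparison up to 3 called partners per direction with the smallest adjusted p. The members and lists were chosen with earlier results of these data known. Sema3g entered no test and Sema3b none in flow-through. Intervals cover counting error and the spread between animals, and depth per library is given with the results.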

Additional observations from a re-analysis of the deposited data

Results flagged for a closer look

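A single library stood apart from the others of its group of 4 for 9 of the 118 gene and group pairs examined, where chance gives about 1 in 20. Animal 42 was high among uninjured mice: Nrp2 was 7.05 CPM in HA IP (others 2.86 to 3.57) and 18.6 CPM in flow-through (4.51 to 6.58), and Plxna3 was 5.01 CPM in flow-through (2.08 to 2.24). In HA IP of WT SCI, animal 9874 had 58.3 CPM of Plxnb2 (others 28.8 to 33.6) and 3.62 CPM of Sema4a (1.85 to 1.96). In flow-through of WT SCI, animal 9935 had 35.5 CPM of Sema4b (others 0 to 2.32) on 18 counts. Its Sema4c was 0 CPM (others 0.681 to 0.774), on 0 counts beside at most 2 in the others. Because 3 counts in that library correspond to 5.91 CPM, this 0 cannot show that it stood apart. Uninjured animal 79 was low in flow-through Sema5a at 15.7 CPM (others 19.0 to 19.7), and uninjured animal 154 was high in HA IP Sema6c at 0.569 CPM (0.361 to 0.376).

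The injury response differed between HA IP and flow-through by the test of the interaction for Plxnb2 (-1.79), Plxnb3 (2.44) and Sema6a (1.86), all on the log2 scale.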

How the results depend on the processing

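Of the 75 calls of members over all comparisons, 32 were tested and held in every other setting, 6 more held in every setting that tested them, and 0 called values reversed. Leaving out each library in turn gave 8 to 12 called members for injury in HA IP (13 with all libraries, 8 without uninjured animal 65), 6 to 11 in flow-through (12, with 6 without uninjured animal 154), 0 to 1 for genotype in HA IP (1 without WT SCI animal 9874), 0 to 3 between the fractions of WT SCI (2), 3 to 6 in STAT3-CKO SCI (5) and 2 to 5 for injury by fraction (3). DESeq2 called 3 members for genotype in HA IP, against 0, and 5 for injury by fraction, against 3. With the animal as a replicate block, 4 members were called between the fractions of WT SCI, 9 in STAT3-CKO SCI and 10 for injury by fraction; the block added Nrp2 in uninjured cord and lost no call. A fit of all 22 libraries called 11 between the fractions of uninjured cord, against 26, and 5 of WT SCI, against 2. Thinned to equal depth, an alternative added after seeing the data, flow-through called 4 members for injury, against 12, and 2 for STAT3-CKO SCI against uninjured, against 5 (6 members were then tested in flow-through: of the calls for injury, 6 were not tested and 2 were lost). Median-ratio scaling moved the median of all genes by -0.12 for injury in flow-through, -0.16 for STAT3-CKO SCI against uninjured there and -0.20 for injury by fraction. Depth limits the WT SCI flow-through libraries most. The shares of all genes given with the results are those of the main fits, not of these settings. The cause of these changes was not tested.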

Other observations

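Sema3g had equal counts in HA IP and flow-through of the same animal in 10 of 11 animals, with both at 0 in 6 of these. Sema3f had equal counts in 6 animals, both at 0 in 5, and Sema3e in 4. For the uninjured animals the Sema3g counts were 5, 1, 0 and 3 in either fraction. Among the other members, Sema4c and Sema5b had equal counts in 1 animal each.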
